A study of Mus musculus with 10 samples.

Results

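The proteasome and the transcription factor that controls its genes, Nfe2l1, were examined in the liver of fasted female mice. The members were chosen by gene symbol. They are the Psma, Psmb, Psmc and Psmd genes of the count table other than the immunoproteasome genes Psmb8, Psmb9 and Psmb10, together with Nfe2l1, Nfe2l2, Ddi2, Ngly1 and Vcp. This gave 40 of 19764 genes, of which 15 encode the core particle, 20 are counted with the cap and 5 belong to the Nfe2l1 route. The 20 cap genes include 3 assembly chaperones, which are counted among the subunits here. Psma6 is not analysed here. All but 1 of the 40 had enough counts to be tested. The exception was Psmb11, a thymus subunit gene, with 1 count over all libraries.

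GRMAC mice carry a floxed glucocorticoid receptor gene and LysM-Cre (GRflox; LysM-Cre+/-). The comparison asks how liver transcripts differ when the cells with LysM-Cre activity, macrophages and other myeloid cells, lose the receptor. GRflox littermates, floxed and without Cre, were the controls, so an effect of Cre itself and an effect of receptor loss cannot be told apart. Both groups were female and had fasted for 8 h from ZT12, when mice become active. Their age is not stated in the labels. Each genotype had 5 libraries of polyadenylated RNA from whole liver. The labels do not say that each library came from a different mouse, so p-values measure the spread between these libraries.

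Proteasomes degrade proteins that carry ubiquitin chains. The core particle is a barrel of alpha and beta rings, and the beta rings hold the proteolytic sites inside. The cap binds ubiquitin chains, removes them, and uses a ring of ATPases to unfold the substrate and thread it into the core. Nfe2l1 is made as a protein of the endoplasmic reticulum membrane. The ATPase Vcp pulls it out, the enzyme Ngly1 removes its sugar chains, the protease Ddi2 cuts it, and the mature factor raises proteasome genes when proteasome capacity falls short. Nfe2l2, its relative, responds to oxidative stress and is held back by Keap1. Both bind the antioxidant response element together with small Maf proteins. Only RNA was measured here, so the processing of the Nfe2l1 protein was not observed.

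The binding element has the core TGACNNNGC, and the sequences that follow are shown because it is the site through which Nfe2l1 and Nfe2l2 reach target promoters. RefSeq promoter windows (build GRCm38.p6, 250 bases before to 50 after the start) were matched by symbol for 33 of the 40 members. Those not matched were Psma8, Psmb1, Psmb2, Psmb7, Psmc3, Psmd3 and Psmd7. The core was searched on both strands, and 7 of the 33 members (21.2%) held it, against 3781 of 27025 genes with a window (14.0%). Among the subunit genes alone it was 5 of 28 (17.9%). Each match is printed 5′ to 3′ on the strand that carries it, in lower case with the matched core in capitals.
Psmb5: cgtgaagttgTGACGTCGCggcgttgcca
Psmb6: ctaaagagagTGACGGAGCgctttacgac
Psmc6: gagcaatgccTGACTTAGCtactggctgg
Psmd9: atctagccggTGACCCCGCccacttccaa
Psmd12: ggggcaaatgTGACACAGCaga
Vcp: tgcggccaatTGACGTGGCgttactaggc
Nfe2l2: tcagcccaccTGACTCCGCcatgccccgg
The Psmb5 stretch lies at chr14:54618024-54618052 (minus strand) and the Psmb6 stretch at chr11:70525338-70525366 (plus strand), with the matched core at bases -47 to -39 and -9 to -1 from the start. Those of Psmc6 (chr14:45329587-45329615) and Psmd12 (chr11:107479278-107479299) are on the minus strand of genes that run on the plus strand. The others are at chr5:123228149-123228177 for Psmd9 (plus), chr4:43000603-43000631 for Vcp (minus) and chr2:75704885-75704913 for Nfe2l2 (minus). A match describes these letters only. The window of Nfe2l1 held none.

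Library totals were 25697931 to 27692528 counts in GRflox and 23258884 to 26116916 in GRMAC. Levels are given as CPM, a gene's share of its library's counts scaled by the TMM method, and 3 counts in a library correspond to 0.111 to 0.129 CPM. The hepatocyte markers Alb, Ttr, Apoa1, Apoc3, Serpina1c, Cps1, Hnf4a and Tat together reached 115680 to 133600 CPM in GRflox and 109340 to 135180 in GRMAC. Most of this sum was Alb (means 99957 and 104000 CPM). Of these 8 markers 6 had a positive log2 fold change and 2 a negative one, with a median of 0.04. Tat, a glucocorticoid-responsive enzyme gene, averaged 3177 ± 652 against 1716 ± 715 CPM (SD, n = 5; log2 fold change -0.89 ± 0.25 SE, edgeR adjusted p = 0.149). Kupffer cell markers reached 197 to 259 and 231 to 329 CPM. Of these 8 markers 6 had a positive log2 fold change and 2 a negative one, with a median of 0.08. Marco went down (-0.85 ± 0.40 SE, edgeR adjusted p = 0.327). Only Cd5l was higher in every GRMAC library than in every GRflox library, as were 2.05% of all genes. It was at 46.2 ± 7.27 against 67.9 ± 12.5 CPM (SD, n = 5; 0.55 ± 0.13 SE). For Cd5l edgeR gave an adjusted p of 0.0928, above the threshold, and it was called higher by DESeq2 and in the authors' deposited table (adjusted p = 0.0056). The receptor gene Nr3c1 was at 69.6, 78.8, 70.5, 81.3 and 63.8 CPM in GRflox and 79.9, 94.0, 74.7, 77.4 and 86.5 CPM in GRMAC (log2 fold change 0.18 ± 0.08 SE, edgeR adjusted p = 0.277). Whole liver is mostly hepatocytes, which keep the receptor, so its level in these libraries is no test of the deletion in myeloid cells. In whole liver, fewer cells of a type and less RNA per cell cannot be told apart.

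Nfe2l1 was the member with the largest difference between the genotypes and the only one to pass the test over all genes. The gene (NM_008686, mm10 chr11:96817414-96829968, minus strand) was at 222.8, 208.3, 207.2, 207.7 and 233.8 CPM in GRflox 1 to 5. In GRMAC 1 to 5 it was at 166.5, 184.3, 161.5, 164.8 and 171.9 CPM. All 5 GRMAC libraries lay below all GRflox libraries, and GRflox 5 and GRMAC 2 were the highest of their groups. Means were 215.9 ± 11.9 and 169.8 ± 8.92 CPM (SD, n = 5). Nfe2l1 thus fell by 21.4% in GRMAC liver, a log2 fold change of -0.35 ± 0.06 SE (adjusted p = 0.0432, edgeR). An exact two-sided permutation test over the 252 assignments of the libraries gave p = 0.00794, the smallest it can give. Groups that do not overlap always give this value, so it adds nothing to the separation of the libraries. The call was close to the threshold. It held in 3 of the 10 fits that left out 1 library, with adjusted p from 0.0288 to 0.106 and log2 fold changes from -0.37 to -0.32.

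Nfe2l2 (NM_010902, chr2:75675519-75704641) was lower to a similar degree without passing edgeR's test. It was at 78.5, 84.6, 82.1, 87.2 and 87.3 CPM in GRflox and at 70.2, 73.4, 60.9, 66.04 and 72.9 CPM in GRMAC, and again the groups did not overlap. The log2 fold change was -0.29 ± 0.06 SE (edgeR, adjusted p = 0.0649). In the authors' deposited table it was lower with a log2 fold change of -0.29 and adjusted p = 0.00258. The ratio of Nfe2l1 to Nfe2l2 counts had overlapping values in the genotypes: 2.58 ± 0.181 (GRflox) against 2.48 ± 0.119 (GRMAC; SD, n = 5).

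The genes that process Nfe2l1 did not move with it as a set. Vcp, the ATPase, was at 314, 344, 348, 355 and 426 CPM in GRflox and 298, 318, 333, 310 and 306 CPM in GRMAC (log2 fold change -0.19 ± 0.08 SE, edgeR adjusted p = 0.239). GRflox 5 was the highest library, and the groups overlapped through GRflox 1. Ddi2, the protease, pointed the other way: 156, 143, 147, 144 and 145 CPM in GRflox against 164, 157, 154, 163 and 147 CPM in GRMAC (0.10 ± 0.05 SE, adjusted p = 0.375). Ngly1, the glycanase, averaged 56.1 ± 2.37 CPM in GRflox against 57.7 ± 2.50 CPM in GRMAC (SD, n = 5), with a log2 fold change of 0.04 ± 0.05 SE. Its sign turned (-0.016) after a correction for GC content and transcript length. Neither Ddi2 nor Ngly1 passed with edgeR, DESeq2 or limma-voom.

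**Figure D1:**
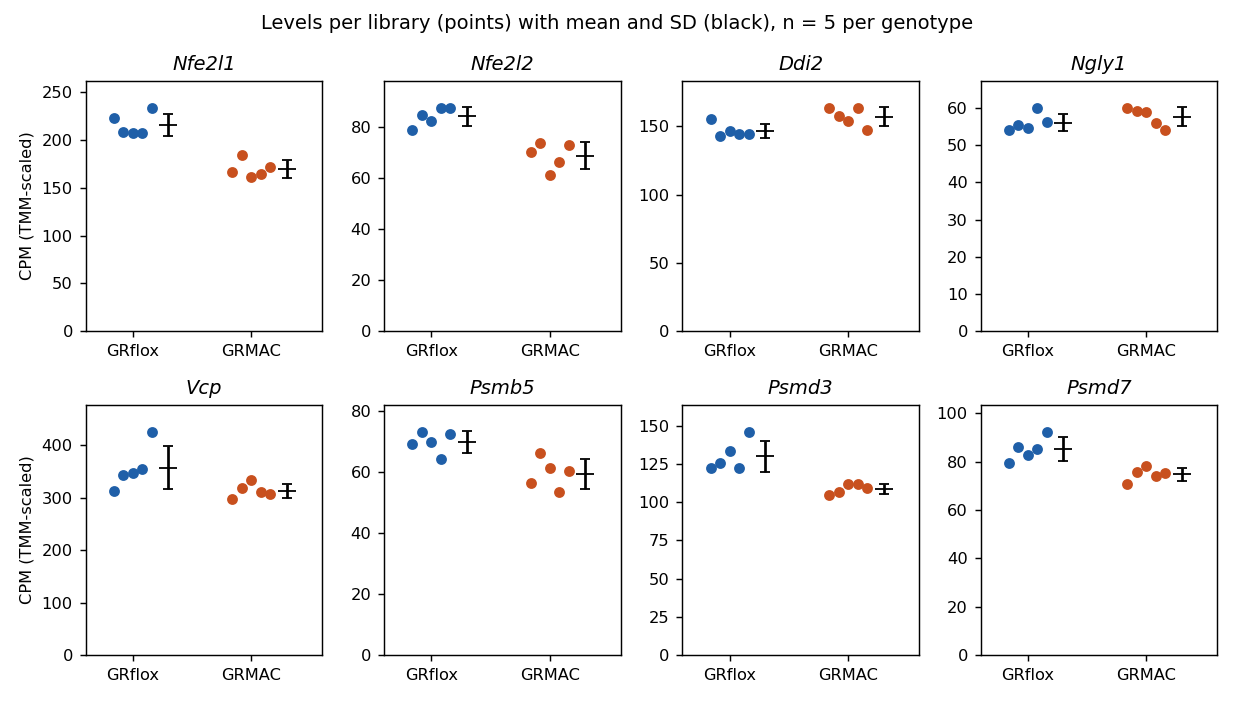
CPM of the 5 Nfe2l1-route genes and of Psmb5, Psmd3 and Psmd7 in each library (points, GRflox blue and GRMAC orange), with mean and SD in black (n = 5 per genotype; axes start at 0). Nfe2l1, Nfe2l2, Psmd3 and Psmd7 do not overlap between the genotypes, whereas the other 4 genes do.

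Among all members, 1 of 39 tested was called lower with edgeR, where 0.0557% of all tested genes were called lower, and none was called higher (0.119% of all genes). Without the threshold, 21 of the 39 had an unadjusted p under 0.05 as lower and none as higher, against 7.75% and 8.58% of all genes. DESeq2 called 5 members lower (1.66% of genes) and none higher (1.97%). These were Nfe2l1, Nfe2l2, Psmb5, Psmd3 and Psmd7. In the authors' deposited table the count was also 5 lower (1.49% of its genes) and none higher (1.84%). The limma-voom fit called none. In 7 of the 39 members every GRMAC library lay below every GRflox library (2.01% of genes), and in none was the reverse true (2.05%).

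The subunit genes were lower in GRMAC by small amounts. All 34 tested subunits had a negative log2 fold change, from -0.27 for Psmd4 to values near 0 for Psmd10 and Psmb1, with a median of -0.15. Over all tested genes 49.8% were negative and the median was 0.00. Psmd10, Psmb1 and Psma8 lay so near 0 for their error that their sign turned in some of the alternative fits, and 31 to 34 subunits were negative with 1 library left out. No single subunit passed edgeR's test over all genes. Together the 34 genes made up 2784, 2774, 2954, 2754 and 3287 CPM in GRflox 1 to 5, and 2581, 2658, 2638, 2596 and 2594 CPM in GRMAC 1 to 5. The spread was wider among GRflox libraries (2910 ± 225 CPM) than among GRMAC libraries (2613 ± 32.7 CPM, SD, n = 5).

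**Figure D2:**
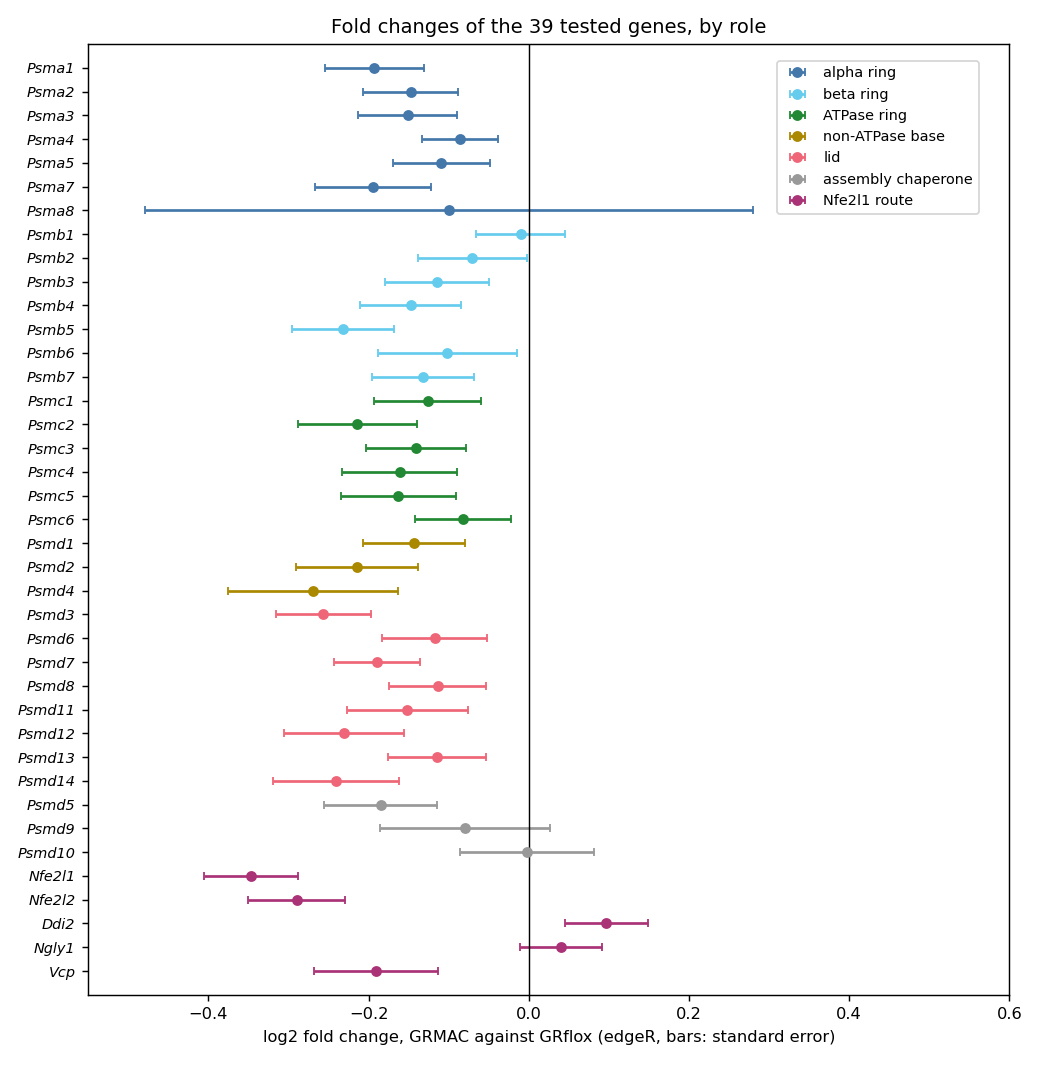
Log2 fold change of GRMAC against GRflox for the 39 tested genes, grouped by role (colours), with the standard error from edgeR as bars and a line at 0. The 34 subunits lie at or left of 0, Nfe2l1 and Nfe2l2 lie furthest left, and Ddi2 and Ngly1 lie right of 0.

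One library carried much of this. GRflox 5 was the highest of the GRflox libraries for 29 of the 34 subunits, among them 12 of 14 core and 17 of 20 cap genes. The share over all genes was not computed, so this cannot be called particular to the subunits. Without GRflox 5, 32 of 34 log2 fold changes were negative, the core median went from -0.12 to -0.09, and the cap median from -0.16 to -0.10. The fold change of Nfe2l1 was -0.32 without GRflox 5 and no longer passed (adjusted p = 0.0962, edgeR). GRflox 5 also had the largest total count, 27692528, and its part in the result was not tested.

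In the alpha ring, which gates the core, 7 tested genes had a median log2 fold change of -0.15. Psma1 had the lowest p: 80.0, 78.2, 80.5, 78.2 and 95.1 CPM in GRflox and 72.6, 74.1, 73.8, 72.2 and 67.7 CPM in GRMAC. The groups did not overlap, and 4 of the 5 GRflox libraries were nearly level (-0.19 ± 0.06 SE, edgeR adjusted p = 0.162). Psma7 had the lowest fold change, -0.19 ± 0.07 SE, and overlapped. Psma4, which had one of the smallest differences of the ring, did not overlap either, because its libraries lay close together (104.3, 104.4, 105.6, 105.4 and 112.3 CPM in GRflox, 101.2, 100.5, 100.9, 95.7 and 103.1 CPM in GRMAC; -0.09 ± 0.05 SE). Psma8, an alpha subunit gene of the testis, had 4 to 24 counts per library and was at 0.594 ± 0.297 and 0.559 ± 0.179 CPM.

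The beta ring (7 tested, median -0.11) held the subunit with the clearest difference in the core. Psmb5, which carries the chymotrypsin-like site, was at 69.1, 73.2, 69.9, 64.2 and 72.5 CPM in GRflox and 56.3, 66.1, 61.1, 53.3 and 60.1 CPM in GRMAC. Only GRMAC 2 reached into the GRflox range. Psmb5 had a log2 fold change of -0.23 ± 0.06 SE with edgeR (adjusted p = 0.109), and the authors' deposited table gave -0.23 with adjusted p = 0.0369. The other proteolytic subunits showed smaller differences: -0.10 ± 0.09 SE for Psmb6 (caspase-like site) and -0.13 ± 0.06 SE for Psmb7 (trypsin-like site). Psmb1, a structural beta subunit, was nearly level at 98.5 ± 5.09 and 97.8 ± 4.96 CPM (SD, n = 5).

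The ATPase ring of the cap had a median of -0.15 over its 6 genes, all between -0.21 and -0.08. Psmc2 had the lowest p and the lowest fold change. It was at 87.8, 83.5, 96.8, 84.2 and 109 CPM in GRflox and 84.4, 78.1, 76.7, 81.4 and 77.6 CPM in GRMAC (-0.21 ± 0.07 SE, edgeR adjusted p = 0.183). The groups overlapped only through GRMAC 1, which lay just above GRflox 2 and GRflox 4. Psmc6 had the smallest difference (-0.08 ± 0.06 SE).

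The 3 non-ATPase base genes had a median of -0.21. Psmd2, a scaffold that binds ubiquitin and shuttle proteins, did not overlap: 167, 166, 178, 164 and 218 CPM in GRflox against 150.3, 155, 158, 155 and 152 CPM in GRMAC (-0.21 ± 0.08 SE, edgeR adjusted p = 0.191). Psmd4, a ubiquitin receptor, had the lowest fold change of any subunit (-0.27 ± 0.11 SE, adjusted p = 0.227) and one of the widest spreads. It was at 167, 141, 165, 132 and 192 CPM in GRflox and 138, 122, 115, 157 and 129 CPM in GRMAC, and GRMAC 1 and GRMAC 4 lay inside the GRflox range. Psmd1, the other scaffold, was at -0.14 ± 0.06 SE.

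In the lid, which removes ubiquitin chains, 8 genes had a median of -0.17. Psmd3 (NM_009439, chr11:98682554-98695978) was at 123, 126, 134, 122 and 146 CPM in GRflox and 105, 107, 112, 112 and 109 CPM in GRMAC, so the groups stood apart. Its log2 fold change was -0.26 ± 0.06 SE (edgeR, adjusted p = 0.0766), and the authors' deposited table listed -0.26 with adjusted p = 0.0056. Psmd7, the partner of the deubiquitinase, also stood apart, with 79.5, 86.1, 82.8, 85.3 and 92.4 CPM in GRflox and 70.6, 75.6, 78.1, 74.2 and 75.3 CPM in GRMAC (-0.19 ± 0.05 SE, edgeR adjusted p = 0.12). The authors' deposited table gave adjusted p = 0.0301 for Psmd7. Psmd14, the deubiquitinase itself, was at 39.66 ± 4.999 and 33.57 ± 1.695 CPM (SD, n = 5; -0.24 ± 0.08 SE, edgeR adjusted p = 0.167). The smallest difference of the lid was that of Psmd8 (-0.11 ± 0.06 SE).

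Psmd5, Psmd9 and Psmd10 help to assemble the ATPase ring and are not part of the finished particle. Psmd5 looked like the subunits (40.7 ± 4.43 and 35.8 ± 1.242 CPM, SD, n = 5; -0.18 ± 0.07 SE). Psmd9 did not. It was highest in GRflox 1 (101 CPM) and lowest in GRMAC 5 (62.0 CPM), with the other 8 libraries between 73.98 and 90.84 CPM. Psmd10 was level at 7.94 ± 0.669 and 7.93 ± 0.172 CPM (SD, n = 5).

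**Figure D3:**
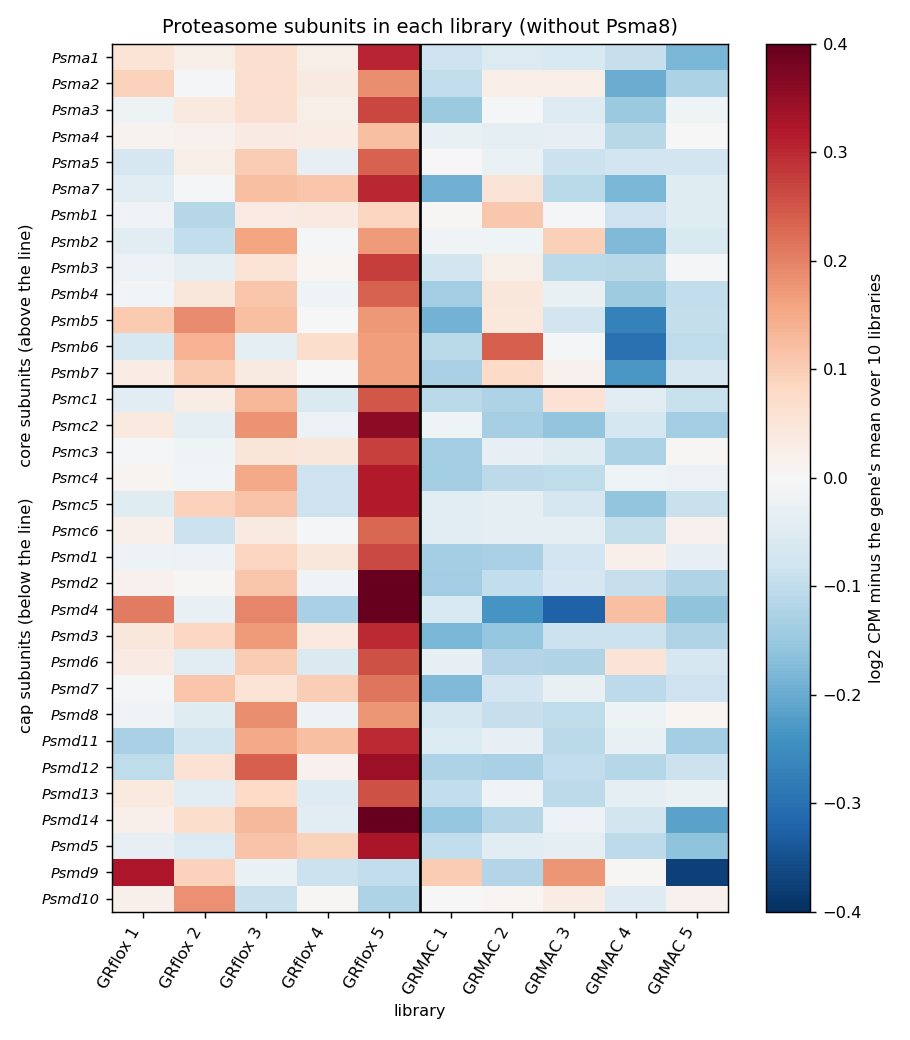
Log2 CPM minus each gene's mean over the 10 libraries for 33 subunits (13 core above the black line, 20 cap below it), GRflox left and GRMAC right of the vertical line. GRflox 5 is red for nearly all genes, and in GRMAC 4 the core genes are darker blue than most cap genes.

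Core and cap were compared through the mean centred log2 CPM of their genes in each library, as a description without a test. The core median log2 fold change was -0.12 (14 genes) and the cap median -0.16 (20 genes). Core minus cap changed by 0.04 from GRflox to GRMAC with all tested genes, and by 0.03 without Psma8, whose few counts weigh on the core mean. With 1 library left out the first value ran from 0.01 (without GRMAC 2; also 0.01 without GRflox 1) to 0.08 (without GRMAC 4). Without Psma8 it ran from -0.0027 (without GRMAC 2) to 0.06 (without GRMAC 4), so its sign was not stable. Without the 3 assembly chaperones the cap median was -0.16 and core minus cap 0.05. The SD of this difference between libraries of 1 genotype was 0.08. In each library, without Psma8, core minus cap was -0.02, 0.01, -0.04, 0.03 and -0.05 in GRflox 1 to 5. It was -0.01, 0.13, 0.03, -0.11 and 0.02 in GRMAC 1 to 5. The outer values both came from GRMAC, so genotype did not order this difference.

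The cap was steadier than the core within GRMAC. The cap score of the 5 GRMAC libraries ran from -0.09 to -0.05, and that of GRflox from -0.01 to 0.26, with no overlap. The core score without Psma8 ran from -0.16 to 0.04 in GRMAC and from 0.00 to 0.21 in GRflox, and overlapped through GRMAC 2. In GRMAC 4 the core was low while the cap was not: 11 of 14 core genes had their lowest GRMAC value there, against 3 of 20 cap genes. The SD of CPM was larger in GRflox than in GRMAC for 19 of 20 cap genes and 10 of 14 core genes. GRflox 5 was the highest GRflox library for 17 of the 20 cap and 12 of the 14 core genes, and the SD was not computed without it. These counts were not made over all genes, so they cannot be called particular to the proteasome.

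**Figure D4:**
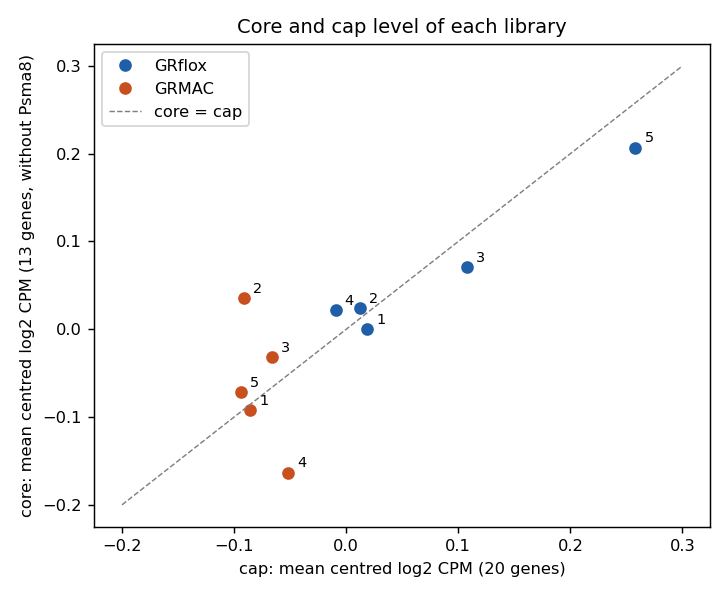
Mean centred log2 CPM of the core (vertical, 13 genes without Psma8) against that of the cap (horizontal, 20 genes) for each library, GRflox blue and GRMAC orange, with the line of equality dashed. GRMAC 2 lies above the line and GRMAC 4 below it, and GRflox 5 is highest on both axes.

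Levels of different genes can be compared only per transcript length, here CPM per kilobase of a GENCODE transcript in GRflox. The core genes without Psma8 had a median of 78.0, from 19.0 for Psma2 to 104 for Psma7. The cap genes had a median of 52.8, from 5.71 for Psmd10 to 120 for Psmd4. These values depend on the transcript taken for each gene. Dividing by the length leaves the fold change of a gene as it was. A correction of each library for GC content and length together did shift fold changes, such as Psma2 (-0.147 to -0.235) and Nfe2l1 (-0.35 to -0.32).

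Tracking with Nfe2l1 was tested within genotype, since a relation pooled over both would restate the genotype difference. The slope gives the log2 change of a gene for each log2 unit of Nfe2l1, with genotype in the model, fitted with edgeR for all genes but Nfe2l1. No member passed, and no gene of all 12557 did (0% called in either direction). Nfe2l1 varied little within a genotype (SD 0.08 in GRflox and 0.07 in GRMAC, log2 units, n = 5). Slopes therefore had wide errors, and the lack of a call does not show a lack of tracking. DESeq2 called 13 genes and no member, but it gave an adjusted p to only 25 of the 38 members. The 13 without one, Psmb3 among them, could not be called. With limma-voom no gene passed. At an unadjusted p under 0.05, 2 members had a positive slope, Psmb3 (1.01 ± 0.39 SE) and Psmd13 (0.88 ± 0.39 SE), against 2.25% of all genes. Psma7 had the next lowest p, with a slope of 0.99 ± 0.46 SE.

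Slopes were positive in 35 of 38 members, with a median of 0.60, against 49.4% of all genes and a median of -0.01. This rested on GRflox 5. Without that library 18 of 38 slopes were positive and the median was -0.06. With any other single library left out, 33 to 35 were positive. After correction for GC content and transcript length the median was 0.31, with 32 positive. Positive slopes were not particular to the members. In the main fit 11 of 12 heat shock genes had one (median 2.24), as did 15 of 19 genes of the endoplasmic reticulum degradation list (median 0.52). Among partners and controls of Nfe2l1 it was 5 of 13. These lists are described below, and the part of GRflox 5 in their slopes was not tested. GRflox 1 had more Nfe2l1 than GRflox 3 (222.8 against 207.2 CPM), yet its subunits summed to 2784 CPM and those of GRflox 3 to 2954 CPM. GRMAC 2, the highest in Nfe2l1 among GRMAC, had the highest subunit sum of that genotype too (2658 CPM), with a core score of 0.04 and a cap score of -0.09.

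**Figure D5:**
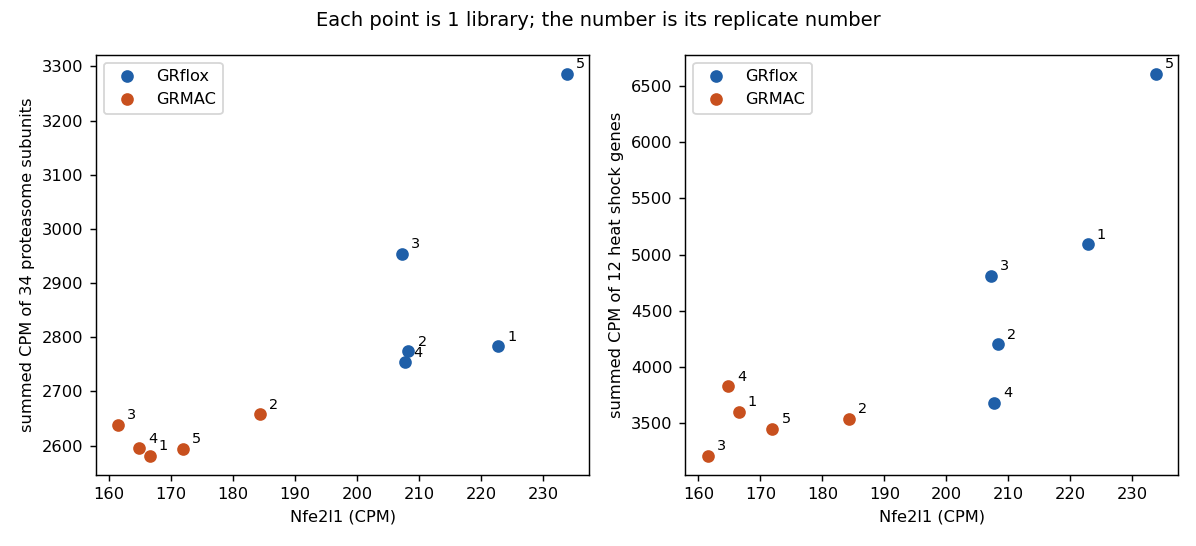
Summed CPM of the 34 tested subunits (left) and of 12 heat shock genes (right) against Nfe2l1 CPM, 1 point per library with its replicate number, GRflox blue and GRMAC orange (axes do not start at 0). GRflox 5 is at the top right of both panels, and the other 4 GRflox libraries show no common order of Nfe2l1 and subunits.

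Heat shock genes had the same highest and lowest GRflox library as the subunits, but another order in GRMAC. The 12 genes of this list (Hspa1a, Hspa1b, Hspb1, Hsp90aa1, Hsp90ab1, Dnajb1, Hsph1, Hspa8, Bag3, Hspd1, Hspe1 and Hsf1) summed to 5094, 4201, 4812, 3682 and 6610 CPM in GRflox. In GRMAC they summed to 3601, 3540, 3210, 3826 and 3450 CPM. Within GRflox, GRflox 5 was highest for this list as for the subunits, and GRflox 4 lowest. In GRMAC, heat shock was highest in GRMAC 4 and lowest in GRMAC 3, whereas the subunits were highest in GRMAC 2 and lowest in GRMAC 1. GRflox 5 was also the highest GRflox library for the activators and for endoplasmic reticulum degradation (863 and 2869 CPM, lists below). The same was true of the hepatocyte and stellate cell markers (133600 and 197 CPM). GRflox 5 was not highest for the immunoproteasome, Nfe2l1 partners, Nfe2l2 targets or the markers of the other cell types. All 12 heat shock genes were negative (median -0.66, where 49.8% of all genes were negative), and none passed with edgeR. DESeq2 called 8 lower (1.66% of all genes), and 6 were lower in the authors' deposited table (1.49% of its genes). At an unadjusted edgeR p under 0.05, 11 were lower (7.75% of all genes). Hspa1b was at 41.8, 25.6, 81.3, 27.6 and 90.3 CPM in GRflox and 11.5 to 16.5 CPM in GRMAC, and Hspe1 was lower too (-0.41 ± 0.10 SE). Hspa1a and Hspa1b are near-identical copies, so their split is uncertain. The part of this list in the subunit result was not tested.

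The immunoproteasome genes, which replace the proteolytic beta subunits under interferon, pointed the other way. Psmb8 was at 11.2, 12.3, 11.2, 13.2 and 12.2 CPM in GRflox and 15.9, 15.8, 14.7, 11.3 and 15.5 CPM in GRMAC (0.28 ± 0.10 SE, edgeR adjusted p = 0.18). GRMAC 4 alone lay within the GRflox range. Psmb9 (0.27 ± 0.12 SE) and Psmb10 (0.05 ± 0.12 SE) did not pass either. Of the 3, none was called with edgeR, DESeq2 or in the authors' deposited table. At an unadjusted edgeR p under 0.05, 2 were higher (8.58% of all genes).

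Among 17 activators, inhibitors, assembly factors and cap-bound enzymes the median was -0.08, with 12 negative and none called by edgeR or DESeq2. At an unadjusted edgeR p under 0.05, 2 were lower (7.75% of all genes) and none higher (8.58%). The lowest p were those of Usp14, a deubiquitinase on the cap (45.7 ± 3.38 and 40.7 ± 2.05 CPM, SD, n = 5; -0.17 ± 0.06 SE), and Psme3, an activator of the core (-0.14 ± 0.06 SE). Partners and controls of Nfe2l1 (13 tested, median -0.07, 8 negative) had no call either. At an unadjusted edgeR p under 0.05, 1 was lower and 1 higher, near the shares of all genes (7.75% and 8.58%). Keap1, the inhibitor of Nfe2l2, was at -0.16 ± 0.06 SE, and Ogt, a glycosyltransferase, at 0.17 ± 0.07 SE.

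Of 19 genes of degradation at the endoplasmic reticulum and Vcp cofactors, 12 were negative (median -0.02). None passed with edgeR, and 5 were lower at an unadjusted edgeR p under 0.05 (7.75% of all genes). DESeq2 called 1 lower (1.66% of all genes), Ubxn1 (101 ± 3.86 to 90.5 ± 3.64 CPM, SD, n = 5, log2 fold change -0.16 ± 0.05 SE). Nsfl1c, a cofactor of Vcp, was at -0.20 ± 0.06 SE. The 15 tested Nfe2l2 targets had a median of -0.07, with 10 negative and none called by edgeR. At an unadjusted edgeR p under 0.05, 2 were lower (7.75% of all genes), and DESeq2 called 1 lower (1.66%). That gene was Srxn1, sulfiredoxin, at 69.1, 60.2, 83.7, 60.4 and 90.2 CPM in GRflox and 51.1, 44.5, 50.9, 66.04 and 54.4 CPM in GRMAC (-0.45 ± 0.13 SE). Txnrd1, thioredoxin reductase, was at -0.17 ± 0.07 SE.

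Genes that supply ubiquitin were read singly. Ubb, a polyubiquitin gene, was at 11.1, 6.81, 6.92, 8.45 and 8.82 CPM in GRflox and at 11.6, 12.2, 10.2, 13.6 and 11.6 CPM in GRMAC. GRflox 1 alone reached into the GRMAC range (0.49 ± 0.13 SE, edgeR adjusted p = 0.102), and DESeq2 called Ubb higher. Ubb consists of near-identical repeats, so its counts are uncertain. Uba1, the main ubiquitin-activating enzyme gene, did not overlap between the genotypes (-0.15 ± 0.05 SE, edgeR adjusted p = 0.179) and was called lower by DESeq2.

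Markers of other liver cells showed these ranges of summed CPM in GRflox and GRMAC. Sinusoidal endothelium was at 130 to 152 and 113 to 187, stellate cells at 153 to 197 and 157 to 216, and cholangiocytes at 9.05 to 10.5 and 7.45 to 12.4. Neutrophil markers were at 2.60 to 4.77 and 3.10 to 5.96, T and NK cell markers at 0.468 to 1.03 and 0.616 to 1.56, and B cell markers at 0.624 to 1.90 and 2.08 to 3.40. Of these lists only the sums of the B cell markers did not overlap (3 genes, median log2 fold change 0.92). DESeq2 called 1 of them higher (1.97% of all genes), and 2 were higher at an unadjusted edgeR p under 0.05 (8.58%). Taken singly, 2 of the 3 were higher in every GRMAC library than in every GRflox library (2.05% of all genes), and Cd79a overlapped. Their counts were few: Cd79a was at 0.117 CPM in GRflox 1, which is 3 counts. The B cell marker Ms4a1 and the stellate cell marker Lrat are not analysed here. None of the markers analysed was at 0 in all libraries. The part of these cells in the subunit levels was not tested.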

How the data were processed

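Whole-liver polyadenylated RNA was sequenced in 5 GRflox and 5 GRMAC paired-end libraries prepared with NEBNext Ultra reagents, as the labels' protocols state. The authors deposited a table of raw counts per gene, with 1 RefSeq transcript and symbol per row. HISAT2 2.1.0, DESeq2 1.24.0 and build mm10 are named in the submitters' processing notes; the counting program, annotation version and strand setting are not given in the sources used here. A second table deposited by the authors holds log2 fold changes and adjusted p-values of GRMAC against GRflox, per the file headers; its 10 columns of values per library were not used.

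The columns were matched to samples by genotype and number. edgeR 4.0.16 (R 4.3.3) was used with filterByExpr (12558 of 19764 genes kept), TMM scaling and the robust quasi-likelihood test, with Benjamini-Hochberg adjustment across the tested genes and a threshold of 0.05. Log2 CPM used a prior count of 2. A standard error is the absolute fold change over the square root of its F. For tracking, Nfe2l1 log2 CPM centred within genotype was added to the model. Transcript lengths and GC content came from GENCODE M21. The fits were tested on simulated counts, and the outcome is not reported here. Alternatives were DESeq2 1.42.0, limma-voom (limma 3.58.1), no robust estimation, RLE scaling, no filter, the replicate number as a block, each library left out, GRflox 4 with GRMAC 4 left out, a cap without assembly chaperones, and medians over members in place of means for core minus cap. A GC and length correction (splines with 5 degrees of freedom) and a core without Psma8 were added after the data were seen.

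The members and lists were chosen with earlier results of these data known, so no p is given for a list. Named genes were the 5 of the Nfe2l1 route, every member called by edgeR, DESeq2 or in the authors' table, the lowest p and the extreme fold changes of each role, the 3 lowest p of the tracking fit, and the 2 lowest p of each context list. A gene that this rule names, and the summary of its list, are not reported here. Others (Psma2, Psma8, Psmb6, Psmb7, Psmb10, Psmd9, Psmd14, Uba1, Cd5l, Marco, Cd79a, Tat) were chosen after their values were seen.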

Additional observations from a re-analysis of the deposited data

Results flagged for a closer look

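In 9 of 152 groups of 5 values, 1 library lay far from the other 4, where chance gives about 8 (1 in 20). In GRflox 5, Psma1 was at 95.09 CPM (others 78.15 to 80.52), Psma3 at 76.41 (others 62.55 to 66.3) and Psma4 at 112.3 (others 104.3 to 105.6). In the same library Psmb3 was at 76.19 CPM (others 61.3 to 65.31), Psmc3 at 112.3 (others 91.84 to 96.08) and Psmd2 at 218.1 (others 163.8 to 178.5). These 6 genes are not independent of each other, since 1 library supplied them all. In GRMAC 4, Psmb8 was at 11.29 CPM (others 14.72 to 15.86) and the 3 immunoproteasome genes summed to 25.93 CPM (others 33.57 to 35.45). The neutrophil markers of GRMAC 4 summed to 5.955 CPM (others 3.095 to 3.272).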

How the results depend on the processing

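Nfe2l1 kept its direction in every fit run. Its call was lost with limma-voom (-0.35, adjusted p = 0.0544), without robust estimation (-0.35, adjusted p = 0.0563), with the GC and length correction (-0.32, adjusted p = 0.0707) and in 7 of 10 fits that left out 1 library (-0.36 to -0.32, adjusted p 0.0657 to 0.106 in those 7; -0.37 to -0.32 in all 10). The members called lower were 5 with DESeq2, 0 with limma-voom, 0 without robust estimation, 0 with the GC and length correction and 0 to 1 with a library left out. Calls over all genes were 22, against 447 with DESeq2, 8 with limma-voom, 34 without the filter, 7 with the GC and length correction, 81 with the block, 68 without GRflox 4 and GRMAC 4, and 5 to 47 with a library left out. With the replicate number as a block Nfe2l1 was at -0.35 (adjusted p = 0.0431) and 1 member was called lower. The block was not taken as pairing, since only 2 of 5 same-number correlations were over 0.1 (-0.11 to 0.17) and 2 GRflox and 2 GRMAC libraries correlated best with their own number. Signs turned for Psma8 (0.0462 with limma-voom, -0.3381 to 0.106 with 1 library left out), Psmb1 (0.01714 without GRflox 4 and GRMAC 4, -0.0356 to 0.0103 with 1 library left out), Psmd10 (0.00188 with limma-voom, 0.0007658 with the block, 0.01176 without GRflox 4 and GRMAC 4, -0.03225 to 0.04967 with 1 library left out) and Ngly1 (-0.01563 with the GC and length correction). Core and cap medians stayed negative with 1 library left out (core -0.165 to -0.09, cap -0.19 to -0.10). Core minus cap was computed from log2 CPM. DESeq2, limma-voom, no robust estimation and the block therefore could not change it. It ran from 0.01 to 0.08 with 1 library left out. All these shifts were under the SD between single libraries (0.10 core, 0.08 cap, 0.08 difference). That SD is a loose standard, since leaving out 1 of 5 libraries can hardly move a group mean so far. At this depth Psma8 and Psmb11 cannot be compared.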
